A study of Mus musculus with 6 samples.

Results

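The genes described here encode the proteins of the cytosolic ribosome. They were taken by name, as symbols that start with Rpl or Rps followed by a number and at most a letter a, x, l or y, together with Rplp0, Rplp1, Rplp2 and Rpsa, and they had to average at least 100 counts over all 6 libraries. Of the 55536 genes in the table, 83 carried such a name and 77 met the minimum, 46 for the large subunit and 31 for the small subunit. The rule used names and mean counts and no difference between treatments.

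RNA was sequenced from primary wildtype OT-I T cells from lymph nodes of mice, cells whose transgenic receptor recognises an ovalbumin peptide. The cells were kept in complete RPMI medium with serum and received disulfiram (DSF), a thiuram disulfide drug given for alcohol dependence, or its solvent dimethyl sulfoxide (DMSO) for 2 h. Each treatment had 3 libraries named as biological replicates, with no separate animals or cultures named, so p-values here measure the spread between libraries, which may be technical. The labels used here state neither the dose, nor the age of the mice, nor whether the cells were stimulated. The direction of every difference depends on taking the codes DO and DF of the deposited table to stand for DMSO and DSF. Totals ran from 18082264 to 21893720 counts per library. The T cell markers Cd3e and Cd8a averaged 229 and 410 counts-per-million units (CPM) in DMSO, whereas Cd4 stood at 1.22 CPM, so CD8 T cell transcripts were present and the defining marker of CD4 T cells was nearly absent.

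A ribosome is built from a small subunit, which reads the mRNA, and a large subunit, which joins the amino acids, and each subunit carries its proteins in single copies apart from the stalk proteins. The mRNAs of these proteins begin with a run of C and T bases, the terminal oligopyrimidine (TOP) motif, through which the kinase complex mTORC1 and the RNA-binding protein Larp1 adjust their translation and storage. T cells raise ribosome production when they are activated. Mammalian genomes also hold many retrotransposed copies of ribosomal protein mRNAs, most of them without introns and called processed pseudogenes, and their sequences can be close to identical to those of the genes.

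The sequences of such copies bear on the values that follow, and the first 60 coding bases of 3 members and their most abundant copies are printed to show how close they are. Rps12 lies on chr10:23785183-23787275 (minus strand) and Rps12-ps3, a copy of 1 exon that the annotation calls protein coding, on chr19:59322290-59322783 (plus strand). Rpl5 lies on chr5:107900502-107909005 (plus strand) and its copy Gm15500 on chr7:114705217-114706235 (minus strand). Rpl12 lies on chr2:32961559-32965345 (plus strand) and its copy Gm10275 on chr10:29698746-29699380 (minus strand). Gm15500 and Gm10275 are annotated as transcribed processed pseudogenes, and all coordinates are GRCm38 from GENCODE M21.
Rps12: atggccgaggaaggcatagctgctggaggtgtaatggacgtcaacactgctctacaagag
Rps12-ps3: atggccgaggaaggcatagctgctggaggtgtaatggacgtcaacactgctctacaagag
Rpl5: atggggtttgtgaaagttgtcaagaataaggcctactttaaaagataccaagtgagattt
Gm15500: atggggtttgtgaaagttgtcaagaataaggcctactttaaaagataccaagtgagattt
Rpl12: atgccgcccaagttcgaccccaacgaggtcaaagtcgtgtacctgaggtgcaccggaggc
Gm10275: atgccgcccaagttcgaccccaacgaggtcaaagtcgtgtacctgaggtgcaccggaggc
Each copy matched its gene over the whole coding sequence with 0 differences, in 399 bases for Rps12, 894 for Rpl5 and 498 for Rpl12. A read of spliced mRNA that falls within these coding bases, also across an exon junction, cannot be assigned to gene or copy by its sequence. How the authors' counting divided such reads was not stated.

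Ribosomal protein mRNAs made up a large share of the RNA. In counts they took 8.56, 8.49 and 8.30% of the DMSO libraries and 8.13, 8.31 and 8.28% of the DSF libraries, and the groups overlapped. With their near-identical copies, described below, they took 9.30 to 9.58% in DMSO and 9.09 to 9.29% in DSF. The groups were only just apart, with 9.296% in DMSO library 3 and 9.292% in DSF library 2. In TPM, a transcripts-per-million unit that divides by gene length, they made up 24.0 ± 0.294% in DMSO and 23.9 ± 0.323% in DSF (mean ± SD, n = 3 per group). The large subunit genes took 1.51 times the counts of the small subunit genes in both groups. These are shares within bulk libraries, so a change in all RNA per cell or in the number of cells would not appear in them. Fewer cells of a type and less RNA per cell cannot be told apart.

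The level of a single member spanned 77.1-fold in DMSO. Rpl13a, a large subunit protein also known outside the ribosome as a translational silencer, had the highest mean level, 8004 ± 164 TPM, followed by the small subunit gene Rps15a at 7962 ± 645 and the acidic stalk protein gene Rplp1 at 7578 ± 208 TPM. The libraries of Rps15a overlapped with those of both others, whereas those of Rpl13a lay above those of Rplp1. The median member stood at 2926 TPM in DMSO and 2908 TPM in DSF. In DMSO the median was 2668 TPM for the large subunit and 3018 TPM for the small subunit.

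The lowest were Rpl5, whose protein carries a ribosomal RNA into the large subunit together with Rpl11, at 104 ± 3.32 TPM, the small subunit gene Rps12 at 141 ± 7.9 TPM and Rpl12, the base of the stalk, at 180 ± 8.59 TPM. These are the 3 genes whose identical copies are printed above. The next genes up were Rps20 at 483 ± 30.5, Rps7 at 541 ± 20.3 and Rps27l at 608 ± 29.2 TPM. With the TPM of near-identical copies added to each gene, Rps12 came to 7241 ± 128 TPM, Rpl12 to 4530 ± 159 and Rpl5 to 3839 ± 57.8 TPM in DMSO. The range of the members then narrowed to 14.6-fold, from Rps7 at 548 TPM to Rpl13a at 8010 TPM. All 3 of the lowest genes then stood above the median of the members as listed.

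**Figure D1:**
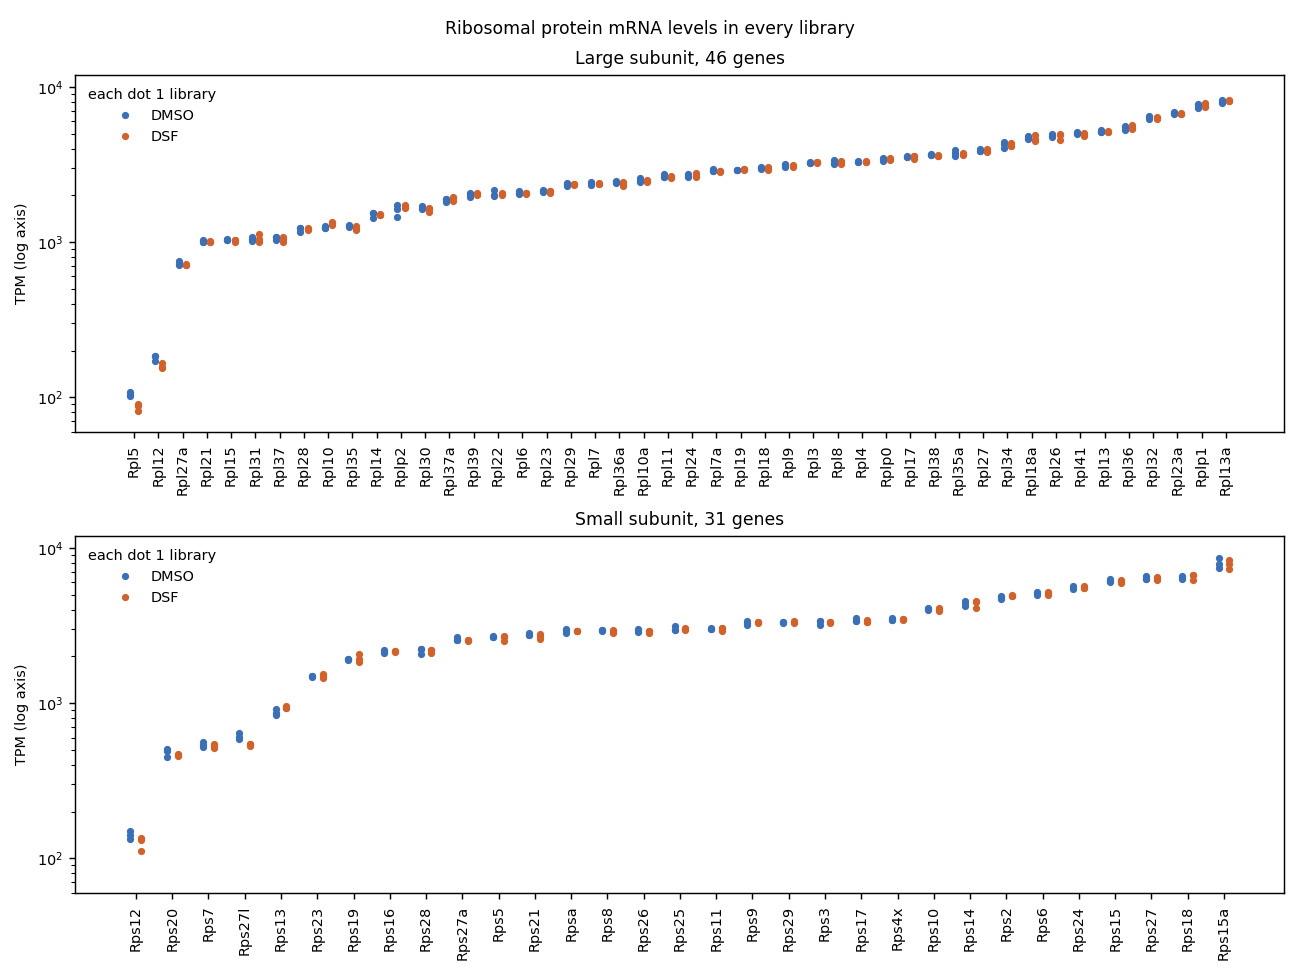
Level of each of the 77 ribosomal protein genes in TPM, as deposited, on a log axis, with large subunit genes above and small subunit genes below, ordered by their mean in DMSO. Each dot is 1 library; DMSO and DSF dots lie side by side for nearly all genes, and Rpl5, Rpl12 and Rps12 lie apart from the rest at the low end.

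Few ribosomal protein mRNAs passed the test after 2 h of DSF, and none of them rose. By edgeR's quasi-likelihood test with Benjamini-Hochberg adjustment over 14318 genes, 4 of the 77 members fell, 0 rose and 73 did not pass an adjusted p under 0.05, while 22.9% of all tested genes passed. In a single direction, 11.6% of all genes passed as higher and 11.3% as lower. At an unadjusted p under 0.05 by edgeR 1 member was higher and 6 were lower, and DESeq2 and limma called 0 higher. The shares of passing genes given here are at an adjusted p. Unadjusted counts, here and for the lists below, have no share of all genes to stand beside. Among the 4311 genes at least as abundant as the lowest member 34.4% passed, although their median level was 105 CPM and that of the members 903 CPM. Of the large subunit genes 2 fell and 44 did not pass, and of the small subunit genes 2 fell and 29 did not pass.

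The fitted log2 fold changes were small throughout. Their median was -0.03 for the members, -0.03 for the large and -0.03 for the small subunit, against -0.0027 for all genes, and the median absolute change was 0.03 for members and 0.12 for all genes. The 73 members that did not pass lay between -0.09 for Rpl10a and 0.09 for Rps13, and all 73 had a 95% interval inside a log2 change of 0.2 in either direction. For 70 of them it lay inside 0.15 and for 42 inside 0.1, so larger differences than these are outside the intervals at this depth. The median standard error was 0.03, and the median coefficient of variation between libraries was 2.57% in DMSO and 1.70% in DSF.

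The small downward lean was shared but depended on single libraries. Of the 77 fitted changes 71 were below 0. So were 7244 of all 14318 genes tested, and 2337 of the 4311 genes at least as abundant as the lowest member. The median member stood 0.05, 0.02 and -0.01 from its mean over all libraries on the log2 scale in the DMSO libraries, and -0.04, -0.005 and -0.01 in the DSF libraries. DMSO library 1 was thus the highest and DSF library 1 the lowest, and the count below 0 was 55 without either of them. With a smooth trend of gene length removed from each library, 41 of 77 were below 0. The library values of the groups did not overlap for 11 members, 9 lower and 2 higher, where 35.4% of all genes did not overlap.

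**Figure D2:**
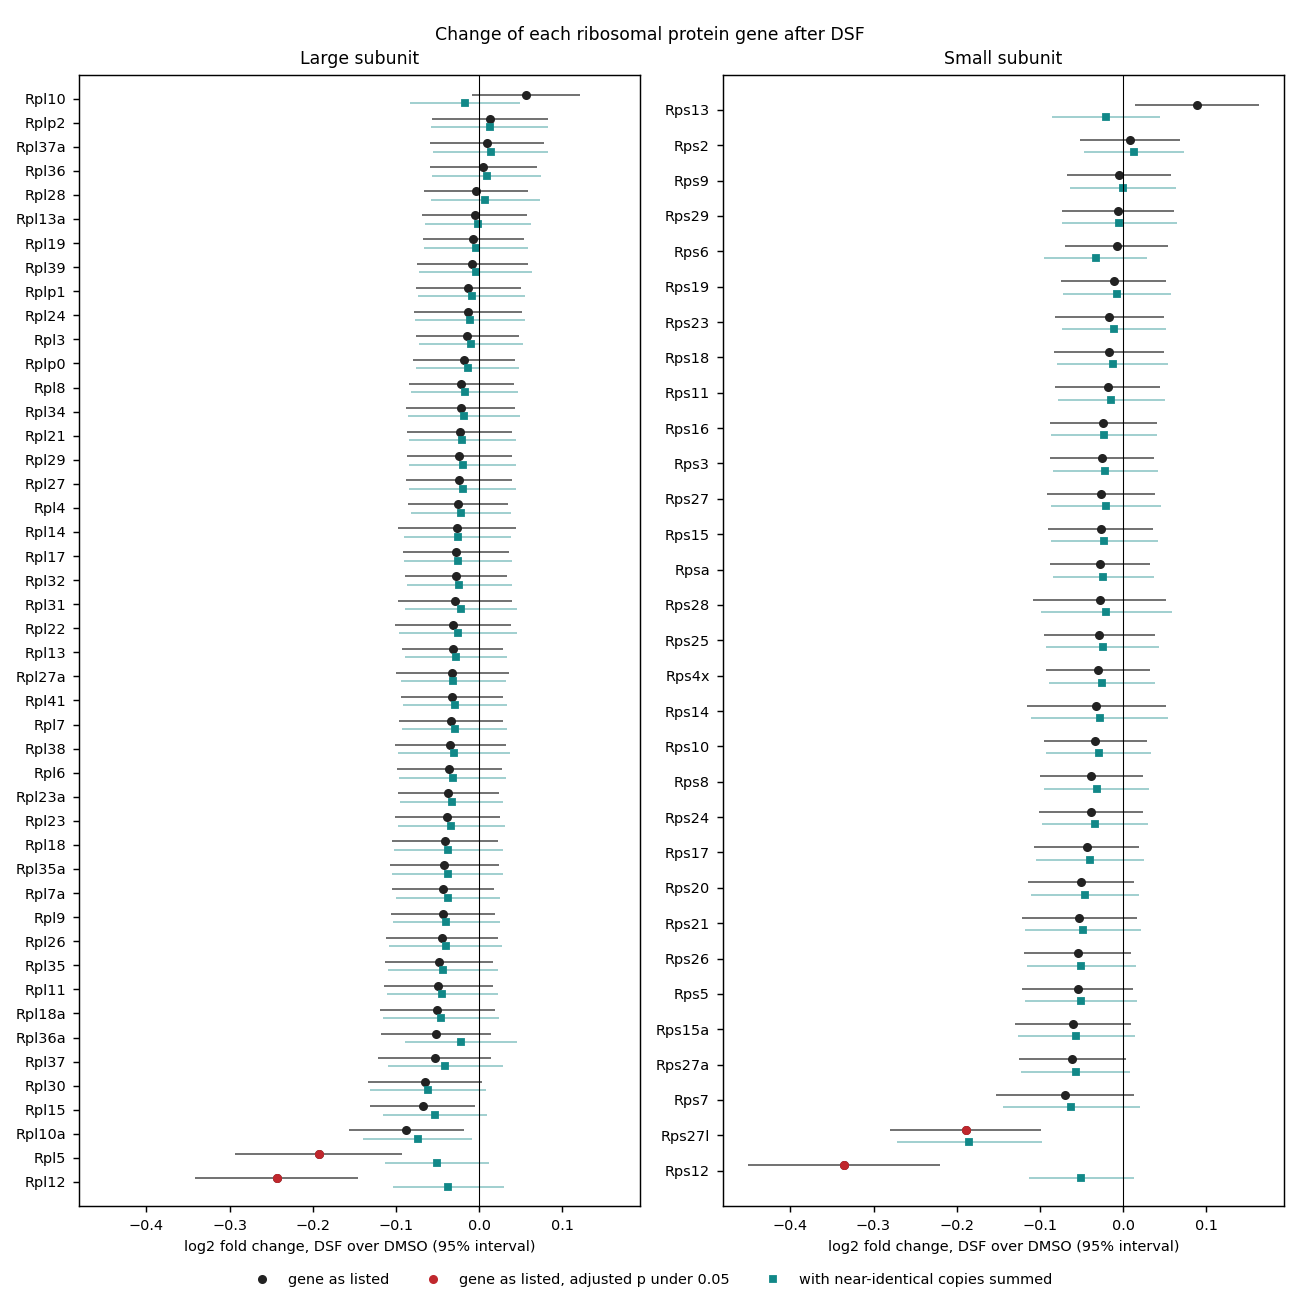
Fitted log2 fold change of each member, DSF over DMSO, with its 95% interval, for the gene as listed (circles, red where the adjusted p was under 0.05) and with its near-identical copies summed (squares). Nearly all points lie within 0.1 of 0, and Rps12, Rpl12 and Rpl5 lie apart only as listed, whereas Rps27l lies apart both ways.

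The proteins of the stalk, which recruits translation factors to the large subunit, are encoded by Rplp0, Rplp1 and Rplp2. Rplp0 stood at 3033, 3095 and 2996 CPM in DMSO and at 2929, 3031 and 3050 CPM in DSF. Rplp1 stood at 1460, 1450 and 1399 CPM in DMSO and at 1386, 1425 and 1459 CPM in DSF. Rplp2 stood at 642, 710 and 690 CPM in DMSO and at 678, 686 and 697 CPM in DSF. In all 3 the groups overlapped, and the fitted changes were -0.02, -0.01 and 0.01.

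Groups also overlapped in other large subunit genes that are often studied on their own. Rpl3, next to the catalytic centre, was at 2949, 2869 and 2813 CPM in DMSO and 2793, 2870 and 2883 CPM in DSF. Rpl11, the partner of Rpl5 and an inhibitor of the p53 ligase Mdm2 when free of the ribosome, was at 1273, 1194 and 1174 CPM in DMSO and 1180, 1178 and 1162 CPM in DSF. Rpl22, which is needed for the development of αβ T cells, was at 443, 413 and 411 CPM in DMSO and 409, 423 and 408 CPM in DSF. All 3 were highest in DMSO library 1, and the 95% interval of Rpl22 reached from -0.10 to 0.04.

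Among large subunit genes with very short proteins, Rpl41 was at 1193, 1216 and 1195 CPM in DMSO and 1149, 1197 and 1178 CPM in DSF. Rpl39 was at 589, 548 and 570 CPM in DMSO and 557, 576 and 564 CPM in DSF. Rpl38, a protein linked to selective translation of Hox mRNAs, was at 315, 324 and 330 CPM in DMSO and 316, 316 and 314 CPM in DSF. Its groups overlapped, as did those of Rpl41 and Rpl39. Rpl13a was at 2142, 2034 and 2010 CPM in DMSO and 2041, 2056 and 2066 CPM in DSF, again with overlapping groups.

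In the small subunit, Rps6, the ribosomal substrate of the S6 kinases, was at 2371, 2418 and 2282 CPM in DMSO and 2326, 2377 and 2330 CPM in DSF. Rps19, the gene mutated most often in Diamond-Blackfan anaemia, was at 680, 677 and 665 CPM in DMSO and 657, 664 and 685 CPM in DSF. Rps26, another gene of that disease, was at 1026, 997 and 961 CPM in DMSO and 965, 941 and 968 CPM in DSF. The groups overlapped in all 3, with fitted changes of -0.01 for Rps6, -0.01 for Rps19 and -0.05 for Rps26. Rpsa, a small subunit protein first described as a laminin receptor, was at 3438, 3434 and 3328 CPM in DMSO and 3291, 3344 and 3372 CPM in DSF.

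Rps4x, carried on the X chromosome, was at 2087, 1980 and 1974 CPM in DMSO and 1956, 1977 and 1984 CPM in DSF. Rps25, which some viral mRNAs need to start translation, was at 821, 763 and 762 CPM in DMSO and 767, 759 and 773 CPM in DSF. In Rpsa, Rps4x and Rps25 alike, DMSO library 1 held the highest value and the groups overlapped. Rps18, Rps15a and Rps20, taken for their extreme TPM in this subunit, did the same, with Rps18 at 1591, 1556 and 1523 CPM in DMSO and 1468, 1582 and 1566 CPM in DSF. Rps15a was at 1457, 1370 and 1386 CPM in DMSO and 1279, 1407 and 1355 CPM in DSF, and Rps20 was at 789, 772 and 750 CPM in DMSO and 751, 749 and 732 CPM in DSF. Rps20 had a fitted change of -0.05 with an adjusted p of 0.276 by edgeR's test.

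The 4 genes that fell were Rps12, Rpl12, Rpl5 and Rps27l. Rps12 was at 55.6, 59.2 and 59.1 CPM in DMSO and 41.3, 48.1 and 48.2 CPM in DSF. Its groups did not overlap, and it fell to 0.793 of its DMSO level, a log2 fold change of -0.34 ± 0.06 (SE, adjusted p 2.84e-05 by edgeR's quasi-likelihood test). Rpl12 was at 108, 106 and 96.2 CPM in DMSO and 87.3, 85.6 and 89.4 CPM in DSF, with no overlap and a log2 fold change of -0.24 ± 0.05 (edgeR's adjusted p 0.000245). On log2(TPM + 1) with limma both kept their direction, at -0.17 for each, but did not pass (limma's adjusted p 0.245 for Rps12 and 0.0666 for Rpl12).

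Rpl5 was at 75.4, 74.6 and 69.8 CPM in DMSO and 63.7, 66.1 and 62.5 CPM in DSF, with a log2 fold change of -0.19 ± 0.05 (edgeR's adjusted p 0.0037). Rps27l encodes a close relative of the small subunit protein Rps27 and is a known target of p53. It was at 122, 111 and 115 CPM in DMSO and 103, 99.8 and 102 CPM in DSF, with a log2 fold change of -0.19 ± 0.04 (edgeR's adjusted p 0.00173). The groups of both genes did not overlap. The authors' deposited table likewise had 4 members lower and 0 higher at its adjusted p under 0.05, among 2319 such genes.

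For 3 of these 4 genes most counts stood at copies. Copies were taken as annotated genes whose transcripts matched at least 80% of a member's coding sequence at 90% identity or more. The search found 976 of them for 74 members, 928 annotated as processed pseudogenes, and 593 had a count in these libraries. Only 38 averaged at least 100 counts and 19 at least 1000, and none was a copy of more than 1 member. For the median member 99.9% of the counts of gene and copies stood at the gene itself, and 59 members had at least 95%.

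In 6 members the gene itself held under 50% of the counts of its family. It held 2.95% for Rpl5, 3.87% for Rps12 and 6.87% for Rpl12, and 35.4% for Rpl10, 37.0% for Rps13 and 37.3% for Rpl27a. Gm15500, the copy of Rpl5, averaged 45002 counts against 1366 at Rpl5 itself. Gm10275 averaged 25777 against 1901 at Rpl12, and Rps12-ps3 averaged 25584 against 1036 at Rps12. The median absolute log2 fold change was 0.14 over these 6 members and 0.03 over the other 71, a split made after the values were seen and not tested.

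**Figure D3:**
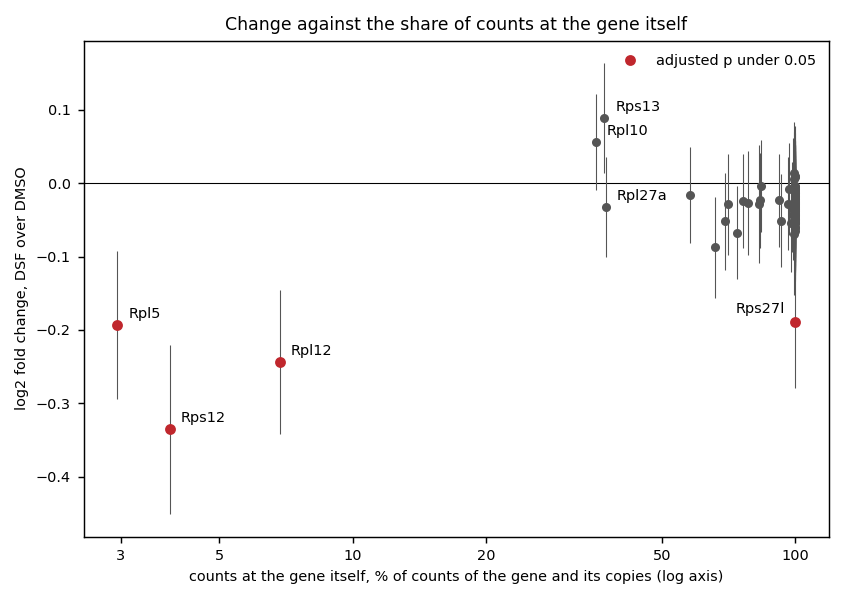
Fitted log2 fold change, DSF over DMSO, with its 95% interval, against the percentage of a family's counts that stood at the gene itself, on a log axis, for all 77 members. Of the 4 red points, Rpl5, Rps12 and Rpl12 lie at 2.95 to 6.87% on the left and Rps27l at 100% on the right.

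The abundant copies did not pass the test that their genes passed. Rps12-ps3 was at 1318, 1318 and 1286 CPM in DMSO and 1233, 1288 and 1276 CPM in DSF, with overlapping groups and a log2 fold change of -0.05 (edgeR's adjusted p 0.315). Gm10275 was at 1360, 1311 and 1256 CPM in DMSO and 1269, 1270 and 1317 CPM in DSF, with a log2 fold change of -0.03 (edgeR's adjusted p 0.64). Gm15500 was at 2373, 2297 and 2243 CPM in DMSO and 2195, 2234 and 2246 CPM in DSF, with a log2 fold change of -0.05 (edgeR's adjusted p 0.267). Each of these changes is close to the median member and smaller than that of the gene it was copied from.

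With the copies' counts added to each gene before the fit, an alternative chosen after seeing the data, 1 of 77 members passed, against 23.0% of the 14242 genes then tested. That gene was Rps27l, whose 5 copies held no counts, at a log2 fold change of -0.18 (edgeR's adjusted p 0.00142). Rps12 with its copies was at 1378, 1380 and 1348 CPM in DMSO and 1285, 1348 and 1334 CPM in DSF, a log2 fold change of -0.05 (edgeR's adjusted p 0.283). Rpl12 with its copies changed by -0.04 (edgeR's adjusted p 0.492) and Rpl5 with its copies by -0.05 (edgeR's adjusted p 0.274). The other 76 sums lay between -0.07 for Rpl10a and 0.01 for Rpl37a, the smallest adjusted p among them by edgeR's test was 0.102, and all 76 intervals lay inside 0.2. The groups did not overlap for 5 of the 77 sums, all lower, against 35.4% of all genes.

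**Figure D4:**
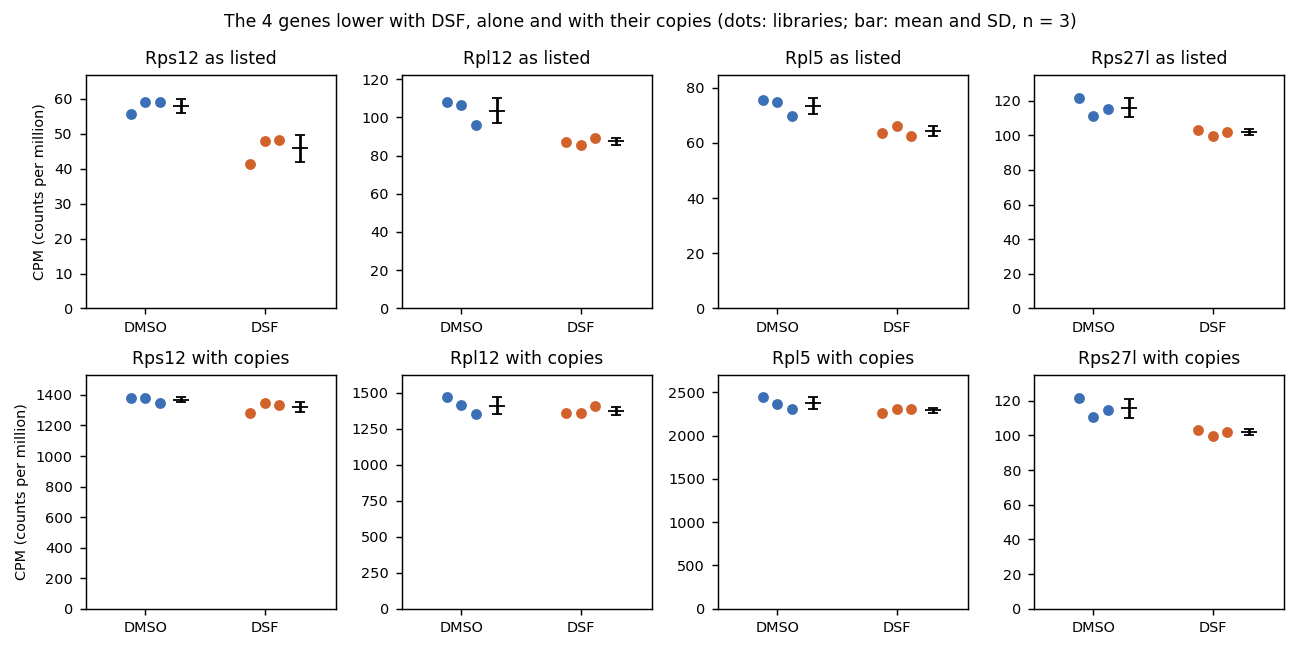
CPM of Rps12, Rpl12, Rpl5 and Rps27l in each library (dots) with the mean and SD of each group (bars, n = 3), for the gene as listed in the upper row and with its near-identical copies summed in the lower row. All axes start at 0; for Rps12, Rpl12 and Rpl5 the distance between the groups is small against the level of the sums, and for Rps27l both rows look alike.

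As gene and copies changed by unlike amounts, the division of counts between them differed between the groups, which restates those changes. The gene's share of its family was 4.03, 4.28 and 4.37% in DMSO and 3.22, 3.57 and 3.62% in DSF for Rps12. For Rpl12 it was 7.37, 7.49 and 7.11% in DMSO and 6.44, 6.31 and 6.35% in DSF. For Rpl5 it was 3.08, 3.14 and 3.02% in DMSO and 2.82, 2.87 and 2.71% in DSF. In these 3 families every DSF library had a lower share at the gene than every DMSO library.

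In 2 further families, named after their values were seen, the share at the gene went the other way. For Rps13 it was 35.2, 36.8 and 34.9% in DMSO and 39.2, 39.0 and 37.4% in DSF, and for Rpl10 34.1, 34.4 and 35.0% in DMSO and 36.7, 36.3 and 36.2% in DSF. Rps13 was at 235, 246 and 225 CPM in DMSO and 255, 249 and 248 CPM in DSF, a log2 fold change of 0.09 with edgeR's adjusted p of 0.0802, and of 0.0257 without DMSO library 2. Its main copy Rps13-ps1 was at 368, 356 and 345 CPM in DMSO and 335, 331 and 352 CPM in DSF, a log2 fold change of -0.07 (edgeR's adjusted p 0.145). With all copies summed Rps13 changed by -0.02 and Rpl10 by -0.02. Rps13 and Rpl10 are the 2 members whose DSF values all lay above their DMSO values as listed, and neither did so with copies summed. In the Rpl27a family the share at the gene overlapped between groups, at 38.0, 37.0 and 36.7% in DMSO and 37.7, 37.1 and 37.1% in DSF.

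Rps13-ps1 shows the case of a copy that can be told from its gene at a few bases. It lies on chr8:87047689-87048226 (plus strand), and its coding sequence differs from that of Rps13 at 2 of 456 bases, both within coding positions 370 to 429, where capitals mark them.
Rps13: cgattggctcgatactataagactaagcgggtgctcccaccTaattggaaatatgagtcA
Rps13-ps1: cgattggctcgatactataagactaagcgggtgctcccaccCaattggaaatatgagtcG
Reads of spliced mRNA within the coding sequence that cover neither of these 2 bases match gene and copy alike.

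Of the 976 copies, 76 passed the low-count filter as genes of their own, and 7 of those passed the test, 3 higher and 4 lower, against 22.9% of all genes. Rps12l1, a further copy of Rps12, rose from 4.70, 5.13 and 6.03 CPM in DMSO to 6.97, 8.59 and 7.96 CPM in DSF, a log2 fold change of 0.57 ± 0.13 (edgeR's adjusted p 0.00196). It rose while Rps12 itself fell. Rps13-ps2, a further copy of Rps13, fell from 65.3, 67.6 and 75.7 CPM in DMSO to 60.4, 58.0 and 62.8 CPM in DSF, a log2 fold change of -0.20 ± 0.05 (edgeR's adjusted p 0.00583). The remaining calls were Gm14648, a copy of Rpl21, and 4931440P22Rik, matched to Rpl29, both higher, and Gm13370 and Gm10240, copies of Rpl21, and Wdr89, matched to Rplp2, all lower.

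Rps27l was the called member with no counts at its copies. It lies on chr9:66946086-66949516 (plus strand) and shares 76.1% of its 255 coding bases with Rps27, with 61 differences. The stretch from coding position 4 to 63 shows how they are spread, with differing bases in capitals.
Rps27l: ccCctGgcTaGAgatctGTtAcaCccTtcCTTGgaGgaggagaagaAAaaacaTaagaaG
Rps27: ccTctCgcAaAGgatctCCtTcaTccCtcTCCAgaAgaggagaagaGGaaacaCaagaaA
Rps27 was at 463, 448 and 470 CPM in DMSO and 448, 454 and 454 CPM in DSF, with overlapping groups and a log2 fold change of -0.03 (edgeR's adjusted p 0.637). In TPM, Rps27l stood at 9.66, 9.30 and 9.50% of Rps27 in DMSO and at 8.77, 8.47 and 8.42% in DSF, and these ratios did not overlap. The fall of Rps27l kept an adjusted p under 0.05 by edgeR's test without any single library, at 0.00102 to 0.0189.

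Other ribosomal protein paralogs were compared in the same way. Rpl22l1 stood at 20.6 ± 0.648% of Rpl22 in DMSO and 20.9 ± 1.90% in DSF (TPM, mean ± SD, n = 3 per group), and Rpl36al at 42.6 ± 1.73 and 41.5 ± 1.46% of Rpl36a. Neither ratio differed beyond its spread. Rpl7l1, a paralog of Rpl7 that acts in assembly of the large subunit, fell from 132, 133 and 126 CPM in DMSO to 111, 112 and 111 CPM in DSF, a log2 fold change of -0.23 ± 0.04 (edgeR's adjusted p 7.98e-05), but did not pass with limma on log2(TPM + 1) (adjusted p 0.156). In TPM, Rpl7l1 stood at 3.09, 3.25 and 2.95% of Rpl7 in DMSO and at 2.93, 2.77 and 2.91% in DSF, only just apart. It lies outside the naming rule, as do Rps3a1, Fau and Rpl36al, which code for ribosomal proteins under other names and did not pass. The paralogs Rpl10l, Rpl32l, Rpl6l, Rpl3l, Rpl39l and Rps4l fell short of the minimum, with 0 to 18.5 counts on average, and the member nearest above it was Rps12 at 1036 counts.

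The other genes of the translation machinery were described from lists chosen by function, with the earlier results of these data known. Of 78 tested mitochondrial ribosomal protein genes, which build the separate ribosome of that organelle, 23 fell, 0 rose and 55 did not pass, at a median log2 fold change of -0.09. At an unadjusted p under 0.05 by edgeR 2 were higher and 31 lower, while DESeq2 and limma each called 6 lower and 0 higher. Of the 23 edgeR calls 14 were made by edgeR alone. Mrps23 fell from 61.7, 61.0 and 57.1 CPM in DMSO to 52.0, 46.2 and 51.0 CPM in DSF, and Mrpl50 from 29.0, 29.7 and 28.6 CPM to 23.9, 22.9 and 24.0 CPM, with no overlap in either. By edgeR, the share that fell, against 11.3% of all genes, stands beside 4 of 77 for the cytosolic set, or 1 of 77 with copies summed. The 2 sets lay closer by DESeq2, with 6 of 78 mitochondrial and 4 of 77 cytosolic genes lower. By limma 6 of 78 and 2 of 77 were lower. The 11.3% is edgeR's share, here and for the lists below, and the other tools called fewer genes. Over all genes 1621 were called lower by edgeR, 1107 by DESeq2 and 546 by limma. Counts by DESeq2 and limma are to be read against these smaller totals.

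Many genes whose products carry ribosomal proteins or finish the subunits fell. Of 22 tested, 15 fell, 0 rose and 7 did not pass by edgeR, where 11.3% of all genes fell. Their median log2 fold change was -0.20. At an unadjusted p under 0.05 by edgeR 15 were lower and 0 higher. DESeq2 called 13 lower and limma 6, and both called 0 higher. Tsr1, a late factor of the small subunit, fell from 163, 159 and 145 CPM to 109, 113 and 106 CPM, a log2 fold change of -0.51 ± 0.05 (edgeR's adjusted p 1.3e-10). Rrs1, which brings Rpl5, Rpl11 and their ribosomal RNA to the large subunit, fell from 63.8, 65.7 and 62.3 CPM to 45.6, 46.5 and 42.6 CPM. Grwd1, the chaperone of Rpl3, fell from 37.1, 38.8 and 37.0 CPM to 26.6, 29.2 and 24.9 CPM. The mRNAs of their clients Rpl3, Rpl11 and Rpl5 are given above. Groups overlapped for Rpl3 and Rpl11. Rpl5 fell as listed, by -0.19 on the log2 scale (edgeR's adjusted p 0.0037), with groups apart. With its copies summed Rpl5 changed by -0.05 (edgeR's adjusted p 0.274), with overlapping groups.

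Of 18 elongation factor and other genes that share the TOP motif 2 fell, 0 rose and 16 did not pass, near the 11.3% of all genes that fell, at a median log2 fold change of -0.03. At an unadjusted p under 0.05 by edgeR 3 were lower and 0 higher, DESeq2 called 2 lower and limma 0, and both called 0 higher. The 2 were Gas5, a snoRNA host RNA, from 411, 395 and 392 CPM to 351, 362 and 345 CPM, and Npm1, a nucleolar chaperone, from 1916, 1770 and 1744 CPM to 1731, 1675 and 1674 CPM. Eef2, which moves the ribosome along the mRNA, was at 5918, 6261 and 6254 CPM in DMSO and 6135, 6448 and 6382 CPM in DSF, and Rack1, a protein bound to the small subunit, at 2016, 2040 and 2004 CPM and 1890, 2026 and 1999 CPM. Neither passed the test and both overlapped between groups.

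Of 30 initiation factor genes 9 fell, 0 rose and 21 did not pass by edgeR, where 11.3% of all genes fell. Their median log2 fold change was -0.07. At an unadjusted p under 0.05 by edgeR 1 was higher and 12 were lower, DESeq2 called 7 lower and limma 2, and both called 0 higher. Eif4a1, the RNA helicase of the cap complex, fell from 1136, 1095 and 1064 CPM to 919, 951 and 937 CPM, and Eif2b1, a subunit of the exchange factor of eIF2, from 47.9, 48.8 and 47.8 CPM to 39.5, 39.9 and 39.2 CPM. Eif3b fell from 315, 320 and 292 CPM to 275, 270 and 274 CPM by edgeR, and did not pass with limma on log2(TPM + 1) (adjusted p 0.0597).

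Of 23 genes of mTORC1 and of TOP mRNA control 1 rose, 3 fell and 19 did not pass, at a median log2 fold change of 0.01, where 11.6% of all genes rose and 11.3% fell. DESeq2 called 1 higher and 2 lower, and limma called 1 higher and 0 lower. Larp1, which binds TOP mRNAs, fell from 349, 373 and 374 CPM to 328, 327 and 326 CPM, a log2 fold change of -0.16 ± 0.03 (edgeR's adjusted p 0.000478). Larp4 fell from 143, 131 and 133 CPM to 121, 119 and 119 CPM, and Eif4ebp1, an inhibitor of cap-dependent initiation, rose from 63.5, 60.7 and 59.0 CPM to 70.2, 68.1 and 69.8 CPM. Mtor itself was at 54.1, 53.6 and 52.7 CPM in DMSO and 57.1, 54.7 and 55.7 CPM in DSF and did not pass. Of 13 factors reported at ribosomal protein promoters 3 rose and 3 fell, among them Myc, which fell by 0.73 on the log2 scale, and Ets1 and Elf1, which rose by 0.43 and 0.29. DESeq2 called 3 of them higher and 2 lower, and limma 2 higher and 2 lower.

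**Figure D5:**
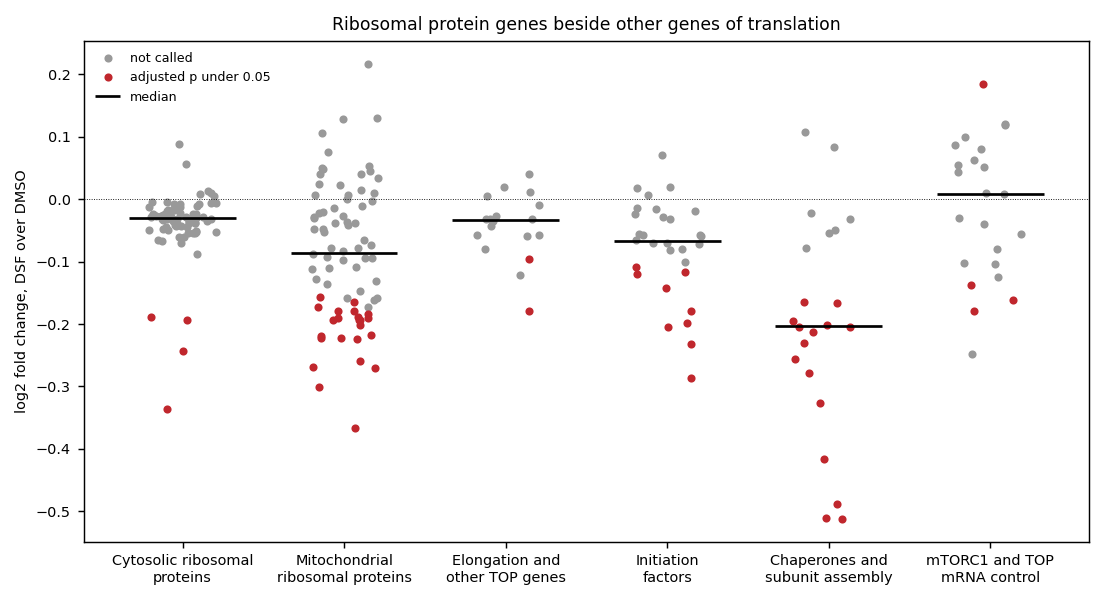
Fitted log2 fold change, DSF over DMSO, of each tested gene (dots, red where the adjusted p was under 0.05) in the cytosolic ribosomal protein genes and 5 other lists of translation genes, with the median of each list as a bar. Most dots of the cytosolic set lie close to its median of -0.03, and the subunit assembly list has the lowest of the 6 medians, -0.20.

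The region around the mRNA start of the members was searched for runs of C and T bases, and a few stretches are printed. A TOP motif begins at the first base of the mRNA. The search did not require that, so a run found here need not be a TOP motif. The printed runs of Rps6 and Rps27 span the annotated start. Those of Rps12 and Rpl11 begin at bases 9 and 14 counted from it, and that of Rps27l lies before it. Sequences are from RefSeq on GRCm38.p6, read on the gene's own strand, with the longest run of C and T in capitals. Rps12 is shown at chr10:23787180-23787209 (minus strand), Rps6 at chr4:86857347-86857376 (minus strand), Rpl11 at chr4:136053359-136053388 (minus strand), Rps27 at chr3:90213629-90213658 (minus strand) and Rps27l at chr9:66946066-66946095 (plus strand).
Rps12: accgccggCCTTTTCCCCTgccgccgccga
Rps6: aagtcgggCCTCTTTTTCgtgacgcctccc
Rpl11: gccggaagTCTCCCTCTCTCTTCCTgttct
Rps27: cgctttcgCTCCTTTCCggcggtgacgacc
Rps27l: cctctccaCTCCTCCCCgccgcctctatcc
From 20 bases before to 50 bases after the annotated start, 46 of the 57 members found in the table (80.7%) held a run of at least 8 bases that are each C or T, on the gene's strand only. The same window held one in 28.5% of 27025 genes, and the median longest run was 10 bases in members and 6 in all genes. Among the genes that fell, Rps12 held a run of 11 bases and Rpl12 one of 8, both after the annotated start. The runs of 9 bases at Rpl5 and Rps27l ended 12 and 4 bases before the annotated start, and a second RefSeq start of Rps27l had a longest run of 5 bases.

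The members lie on 19 chromosomes, 4 of them on X, and 29 hold a snoRNA gene within their span, 56 snoRNAs in all. Exons of 18 members overlap an exon on the opposite strand, among them Rpl12 with Lrsam1 and Rpl5 with Fam69a, and whether the counting used strand was not stated.

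Markers of cell types were read beside these results. Of 10 T cell markers 4 fell, 0 rose and 6 did not pass by edgeR, where 11.3% of all genes fell. At an unadjusted p under 0.05 by edgeR 7 were lower and 0 higher. DESeq2 called 4 lower and limma 2, and both called 0 higher. The summed level of the 10 markers was 2911 to 2959 CPM in DMSO and 2660 to 2763 CPM in DSF. This sum moved down with the small lean of the members, and its part in that lean was not tested. Cd8a fell from 415, 405 and 410 CPM to 345, 348 and 356 CPM. Of 6 B cell markers 0 passed by edgeR, DESeq2 or limma and 1 was lower at an unadjusted p under 0.05 by edgeR, with summed levels of 33.9 to 37.3 and 34.0 to 36.7 CPM. Of 7 tested myeloid and dendritic cell markers only Xcr1 passed and fell, and their sums were 32.9 to 33.7 CPM in DMSO and 27.2 to 28.3 CPM in DSF, where Siglech was too low to be tested. Without Xcr1 the sums of the other 6 overlapped, at 20.4 to 23.9 CPM in DMSO and 21.3 to 23.0 CPM in DSF. The 1 of 4 natural killer cell markers that could be tested, Klrb1c, stayed at 2.64 to 3.82 CPM over all libraries, and 0 of 3 tested stromal, endothelial and erythroid markers passed, by edgeR at an adjusted or unadjusted p or by DESeq2 or limma, at sums of 31.7 to 36.7 CPM over all libraries.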

How the data were processed

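In the deposited table each gene has 1 expected count for each library, not normalised, and 12.1 to 12.9% of a library's values are not whole. It also gives the authors' TPM per library and their fold change (ratio), log2 fold change, p-value and adjusted p-value, per the file headers, with DESeq2 in its title. Per the submitters' processing notes the build was GRCm38 (mm10). Aligner, counter, annotation and strandedness were not stated. The group means in the table equal the A and B columns taken as DMSO and DSF in all 55536 genes within 0.0001 TPM. Of the columns with values per library 0 were left unused, and the authors' second table was not used here.

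Whole counts had been assumed, so estimated counts were rounded. Genes were filtered with filterByExpr (14318 kept, all 77 members among them), scaled by TMM (factors 0.995 to 1.005) and tested with edgeR 4.0.16 in R 4.3.3 (glmQLFit with robust estimation, glmQLFTest), with a group term alone. Calls used a Benjamini-Hochberg adjusted p under 0.05 over all genes tested. CPM are TMM-scaled, and SE were computed from each fold change and its F statistic. Library totals were 18082264 to 21893720 counts, and intervals cover the spread between libraries. Alternatives were DESeq2 1.42.0, other scaling, filters, a replicate block, a gene length trend, limma 3.58.1 on log2(TPM + 1) and leaving out libraries. Copies were found with BLAST 2.17.0 against GENCODE M21, which holds all 55536 identifiers. The fit was tested on simulated data.

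The members, lists and rules were chosen with earlier results of these data known. Printed in full were called members, the 2 highest and 2 lowest by TPM of each subunit, 15 further members fixed by name, and up to 3 called genes with the smallest p per list. Rps7, Rps13, Rpl10, Rpl10a, Rpl27a, Rpl37a and the copies were named after their values were seen, as were Eef2, Rack1 and Mtor. Sets are described by counts and medians, with no set test.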

Additional observations from a re-analysis of the deposited data

How the results depend on the processing

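The median change of the members was below 0 under every alternative run, from -0.041 without DMSO library 3 to -0.00045 with a gene length trend removed, where 41 of 77 members were below 0. Calls of members moved more. With copies summed, chosen after seeing the data, 1 member was called, 1 lower. With limma on log2(TPM + 1), 1383 genes were called, 837 higher and 546 lower, with 2 members, 2 lower, and Rps12 (-0.17, adjusted p 0.245) and Rpl12 (-0.17, adjusted p 0.0666) lost their calls. With a gene length trend removed, 2 members were called higher, Rpl10 (adjusted p 0.0298 by edgeR) and Rps13 (adjusted p 0.0102 by edgeR). Leaving out 1 library gave 4 to 5 members called, 0 to 1 of them higher and 4 to 5 lower, and 2565 to 2983 genes in all; the added calls were Rps13 without DMSO library 2 and Rpl10a without DMSO library 3. Without the low-count filter Rpl10a was also called (adjusted p 0.0474 by edgeR). The DESeq2 fit made here called 2319 genes and the same 4 members. The cause of these differences was not tested.

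With a replicate block 7 members were called, 1 higher, adding Rpl10a, Rpl15 and Rps13. Same-numbered libraries had correlations of 0.0457, 0.0349 and 0.0547 between their deviations. Each was above those of all other pairings but under 0.1. The main fit did not pair them, and whether they share more than a number was not settled.

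The lowest member, Rps12, averaged 1036 counts; how much of its spread is counting error was not tested.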
